A study of Mus musculus with 5 samples.

Results

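Toll-like receptors are membrane proteins of the innate immune system that bind conserved molecules of microbes. The genes described here are the mouse receptors Tlr1 to Tlr9 and Cd14, which were picked by name from the deposited table: all 10 are among its 18044 genes. RNA came from cells of the pelvis-kidney junction, where the renal pelvis joins the kidney, of wild-type C57BL/6 mouse embryos at E18.5. Junctions of all embryos were pooled, digested with collagenase, stained with an antibody against the cation channel HCN3 and sorted, which gave 2 libraries labelled HCN3-positive (urinary tract pacemaker cells, in the submitters' words) and 3 labelled HCN3-negative. All 5 libraries share strain, stage, tissue and treatment, and differ by label only in the sort. The comparison built into the labels is that of HCN3-positive with HCN3-negative cells.

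Receptors at the cell surface (Tlr1, Tlr2, Tlr4, Tlr5 and Tlr6) mainly bind lipids and proteins of microbes, and those in endosomes (Tlr3, Tlr7, Tlr8 and Tlr9) bind nucleic acids. Adaptor proteins such as MyD88 and TRIF then activate the transcription factors NF-kB and IRF, which switch on genes of cytokines and chemokines. In the kidney, macrophages and dendritic cells carry many of these receptors, and some epithelial and stromal cells carry a few of them.

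Reads assigned to genes ranged from 24588864 to 39034478 per library. Nothing in the labels says that the libraries came from separate pools of embryos, so each p-value reflects variation among these samples only, which may be of technical origin. The sorted channel's own transcript, Hcn3, did not follow the labels. Its reads were 0 and 60 for the libraries labelled HCN3-positive 1 and 2, and 116, 29 and 45 for HCN3-negative 1, 2 and 3. In the same order its normalized counts were 0 and 44.5, and 103, 32.2 and 41.9. Libraries are therefore called by their labels throughout. The authors' deposited table also compares another division than the labels: in all 18047 of its rows the fold equals a ratio between 2 libraries, HCN3-positive 1 with HCN3-negative 2 by their labels, and the other 3. Here the pair is named the first set, and the remaining 3 form the second set. Values of the first set are given in the order labelled HCN3-positive 1, labelled HCN3-negative 2. Values of the second set follow the order labelled HCN3-positive 2, HCN3-negative 1, HCN3-negative 3. The table is named as a comparison of HCN3-negative with HCN3-positive cells, so its division and the labels disagree. Whether labels or columns were exchanged was not tested, and an exchange would change what each value by label means.

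By label, the libraries of the sorted fractions overlapped for all 10 genes, while 5.34% of all genes tested were higher and 5.44% lower in the libraries labelled HCN3-positive without overlap. In limma on log2(normalized count + 1), 0 of 10 passed an adjusted p of 0.05, and 0 of 10 had an unadjusted p under 0.05. Over all 16579 genes tested the percentage called was 0 in each direction, with 157 genes (0.947%) under an unadjusted p of 0.05. DESeq2 gave no adjusted p for Tlr1, Tlr7, Tlr8 and Cd14, so these could not be called, and it called 0 of the others. In all it called 10 genes, 0.00603% of those tested as higher and 0.0543% as lower, with 2.8% under an unadjusted p of 0.05. EdgeR called 0 genes, with 0.995% under an unadjusted p of 0.05. Log2 fold changes, labelled positive over labelled negative, ran from -0.76 for Tlr5 to 1.41 for Tlr1, with a median of 0.38 against -0.03 over all genes tested. The first set holds a larger share of the libraries labelled HCN3-positive than of those labelled HCN3-negative. A gene high in that set therefore tends to a positive value by label. The intervals of the log2 fold changes were wide. For Tlr8 the 95% interval of the log2 fold change reached from -10.6 to 10.9, and for Tlr3, the narrowest, from -1.56 to 2.03. A moderate difference between the sorted fractions was not detectable with this spread.

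Between the sets of the authors' table the same genes stood far apart. Of the 10 genes, 8 rose in the first set at a limma adjusted p of 0.05: Tlr1, Tlr2, Tlr4, Tlr6, Tlr7, Tlr8, Tlr9 and Cd14. The percentage called higher over all genes tested was 10.6 and that called lower 9.88, and 0 of the 10 were lower. The median log2 fold change, first set over second set, was 5.48, against -0.07 over all genes tested. The sets did not overlap for 9 of the 10, with Tlr3 the exception. Of all genes tested, 23.5% were higher and 26.1% lower in the first set without overlap. EdgeR called the same 8 (9.95% of all genes higher, 7.08% lower), and DESeq2 called these and Tlr5 (13.7% higher, 13.9% lower). The authors' deposited table called 8 of the 10 higher in the first set, where 8.1% of its genes were higher and 6.09% lower. Its calls left out Tlr3 and Tlr9 and held Tlr5. Of the limma calls, 4 held without the library labelled HCN3-positive 1, namely Tlr1, Tlr2, Tlr4 and Cd14, while Tlr6, Tlr7, Tlr8 and Tlr9 had adjusted p of 0.0593, 0.0535, 0.0535 and 0.0504.

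**Figure D1:**
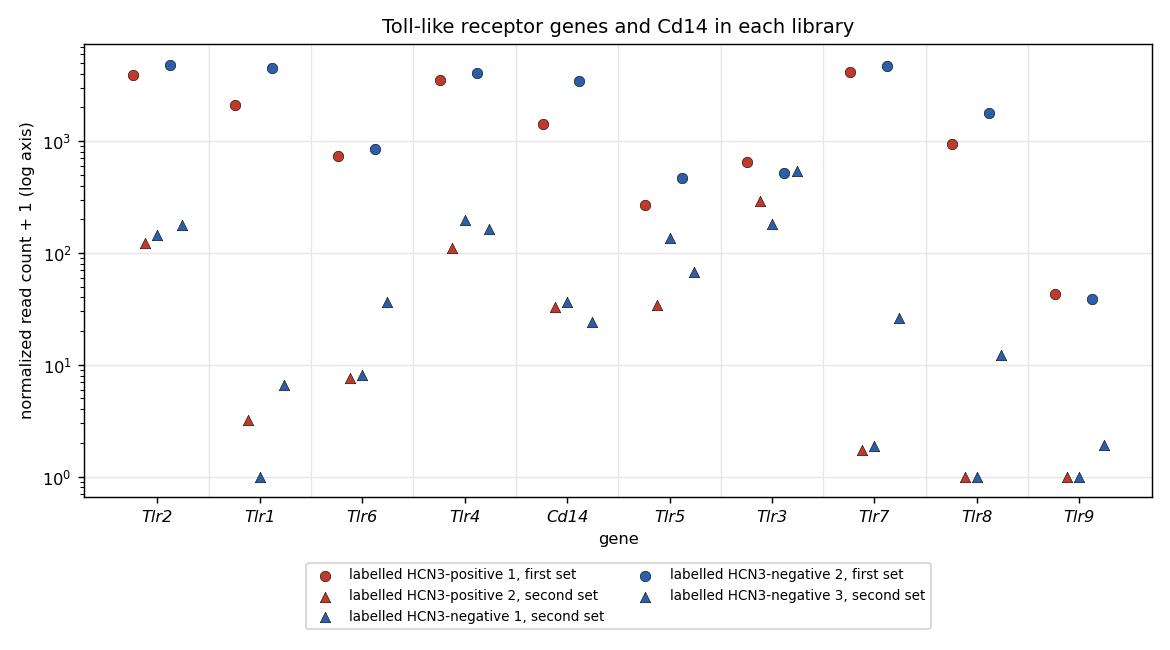
Normalized read count plus 1 (log vertical axis) of each gene (horizontal axis) in the 5 libraries. Colour gives the label and shape the set, and each point is 1 library. First-set libraries held 4140 and 4686 of Tlr7 and second-set libraries 0.742 to 25.1, while Tlr3 overlapped.

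Tlr2 is the shared partner in receptor pairs for bacterial lipopeptides (chromosome 3, 83836272 to 83841767, minus strand, mm10). Its normalized counts were 3888 and 4838 in the first set and 122, 143 and 176 in the second. The libraries within each set were close to each other, whatever their label. Means were 4363 ± 672 (SD, n = 2) and 147 ± 27.2 (SD, n = 3), a log2 fold change of 4.89 (SE 0.33) with a limma adjusted p of 0.000396. Tlr1, which pairs with Tlr2 on triacylated lipopeptides (chromosome 5, 64924679 to 64933563, minus strand), had 2114 and 4524 against 2.23, 0 and 5.58. These second-set values are 3, 0 and 6 reads. The log2 fold change of Tlr1 was 10.13 (SE 1.00, limma adjusted p of 0.00125), and it ran from 9.39 without the library labelled HCN3-negative 1 to 10.75 without HCN3-negative 3. Tlr6 pairs with Tlr2 on diacylated lipopeptides and lies beside Tlr1 (chromosome 5, 64952031 to 64960097, minus strand). It had 732 and 855 against 6.68, 7.13 and 35.3, with a log2 fold change of 5.91 (SE 0.89, limma adjusted p of 0.00526). Without the library labelled HCN3-negative 3, the highest of the second set, the value was 6.65. Transcripts of Tlr1 and Tlr6 share 454 stretches of 50 bases, 13.6% of those of Tlr1 and 12.3% of those of Tlr6. Reads that align equally to both genes are not aligned uniquely, and such reads were left out. Both genes may therefore be undercounted over what they share. No other pair of the family shares such a stretch in the annotation used.

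Tlr4 and Cd14 belong to the sensor of bacterial lipopolysaccharide, Tlr4 as the signalling receptor and Cd14 as the anchored protein that passes the ligand on. Tlr4 (chromosome 4, 66827584 to 66930284) stood at 3542 and 4031 in the first set, and at 109, 198 and 163 in the second. Its means were 3787 ± 345 (SD, n = 2) and 157 ± 44.7 (SD, n = 3), giving a log2 fold change of 4.63 (SE 0.36) at a limma adjusted p of 0.000687. Cd14 (chromosome 18, 36725067 to 36726798, minus strand) had 1434 and 3428 against 31.9, 35.6 and 23.3. The library labelled HCN3-negative 2 was thus the highest of all for Cd14, and the one labelled HCN3-positive 1 held 0.418 of its level. The log2 fold change of Cd14 was 6.17 (SE 0.58, limma adjusted p of 0.0011), from 5.54 without the library labelled HCN3-negative 2 to 6.80 without HCN3-positive 1. Tlr5, the receptor of flagellin (chromosome 1, 182954788 to 182976044), had 268 and 469 against 33.4, 136 and 66.0. The sets did not overlap for Tlr5, yet its log2 fold change of 2.38 (SE 0.74) had a limma adjusted p of 0.0644. DESeq2 gave 0.0137 and edgeR 0.0748 for Tlr5, and in the authors' deposited table its fold was 4.69 with an adjusted p of 0.00569.

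Among the endosomal receptors, Tlr7 and Tlr8 bind single-stranded RNA and lie next to each other on the X chromosome (167304929 to 167330558 and 167242696 to 167264329, both on the minus strand). Tlr7 had normalized counts of 4140 and 4686 in the first set and 0.742, 0.891 and 25.1 in the second, the latter from 1, 1 and 27 reads. Tlr8 had 936 and 1791 against 0, 0 and 11.2, the last from 12 reads. For both genes nearly all reads of the second set came from the library labelled HCN3-negative 3. The log2 fold change was 9.96 (SE 1.26) for Tlr7 and 9.14 (SE 1.30) for Tlr8, with limma adjusted p of 0.00282 and 0.00434. Without the library labelled HCN3-negative 3 these values were 11.25 and 10.34. Without HCN3-positive 2 they were 9.29 and 8.54, and without HCN3-negative 1 they were 9.35 and 8.54. Tlr9, which binds unmethylated CpG DNA (chromosome 9, 106222598 to 106226883), was the scarcest of the 10, at 42.3 and 37.7 against 0, 0 and 0.93. That is 64 reads in the first set and 1 read in the second, a ratio of 141 with a 95% counting interval from 24.4 to 5651. Tlr9 had a limma adjusted p of 0.0177, which rose to 0.0692 without the library labelled HCN3-positive 2. In the authors' deposited table its adjusted p was 0.0656.

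Tlr3 did not follow the other endosomal receptors. It binds double-stranded RNA and signals through TRIF rather than MyD88 (chromosome 8, 45395665 to 45411080, minus strand). Its normalized counts were 651 and 521 in the first set and 293, 181 and 540 in the second, so the library labelled HCN3-negative 3 lay above one of the first set. Means were 586 ± 92.4 (SD, n = 2) and 338 ± 184 (SD, n = 3). The log2 fold change of 0.93 had a 95% interval from -0.31 to 2.16 and a limma adjusted p of 0.27, which leaves room for a difference in either direction. In the authors' deposited table the fold was 1.73 with an adjusted p of 0.419. A transcript on the opposite strand, Gm45542, shares 381 of the 5207 bases of annotated Tlr3 exon. Since no label says that the libraries preserve strand, reads inside these shared bases cannot be told apart.

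**Figure D2:**
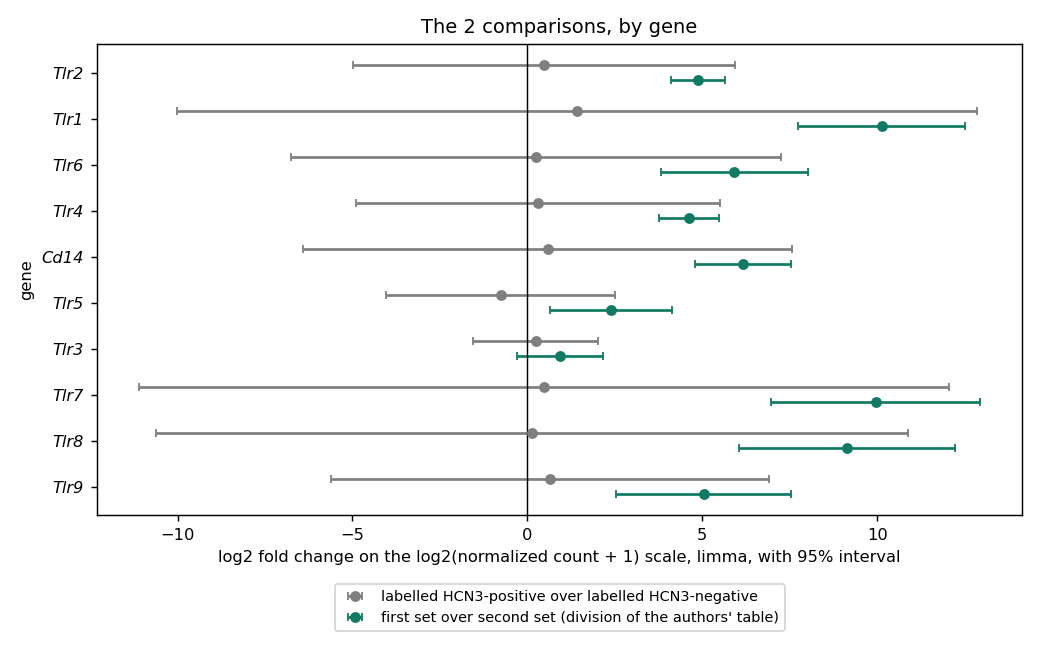
Log2 fold change of each gene (vertical axis) on the log2(normalized count + 1) scale with its 95% limma interval (horizontal axis), for the labelled comparison in grey and for the first over the second set in green. All grey intervals include 0, and among the green ones only that of Tlr3 does.

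Within each set the labels could be compared without crossing the division. In the first set, which has 1 library of each label and so no test, the ratio of the library labelled HCN3-positive 1 to that labelled HCN3-negative 2 ran from 0.418 for Cd14 to 1.25 for Tlr3. It was 0.804 for Tlr2, 0.879 for Tlr4, 0.884 for Tlr7 and 0.467 for Tlr1. In the second set, the library labelled HCN3-positive 2 was set against those labelled HCN3-negative 1 and 3. With 1 library against 2, the values are given with no call. There the log2 fold change was -1.48 for Tlr5, -1.16 for Tlr6, -2.01 for Tlr7 and -1.80 for Tlr8, and 0.14 for Cd14. Those of Tlr7 and Tlr8 rest on the library labelled HCN3-negative 3, which held 27 of the 29 reads of Tlr7 and all 12 of Tlr8. Tlr2, Tlr4, Tlr5, Tlr6, Tlr7 and Tlr8 were lower by label in both sets. Over all 5 libraries only Tlr5 of these stayed lower. There Tlr2, Tlr4, Tlr6, Tlr7 and Tlr8 had log2 fold changes by label of 0.47, 0.30, 0.25, 0.47 and 0.13. Tlr1 and Cd14 were lower by label in the first set alone, and Tlr3 and Tlr9 in the second alone.

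Levels can be set beside each other once divided by exon length, here as normalized counts per kb of annotated exon. In the first set Tlr2 and Cd14 had the highest means, at 1447 and 1404 per kb, followed by Tlr7 (1081), Tlr1 (992) and Tlr4 (682). Tlr8 (380) and Tlr6 (213) came next, then Tlr3 (113), Tlr5 (77.0) and Tlr9 (11.5). The leading neighbours are not separable, since Cd14 alone ran from 828 to 1979 per kb between the libraries of this set. Ranges of Tlr1 (632 to 1352) and Tlr4 (638 to 726) also overlapped. That of Tlr5 (55.9 to 98.0) lay just below both libraries of Tlr3. In the second set the order was another: Tlr3 led with a mean of 64.9 per kb, ahead of Tlr2 (48.8) and Tlr4 (28.2), while Tlr7, Tlr8, Tlr1 and Tlr9 lay at 2.18, 1.04, 0.778 and 0.0892. The ranges of Tlr3 (34.7 to 104) and Tlr2 (40.4 to 58.3) overlapped there.

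**Figure D3:**
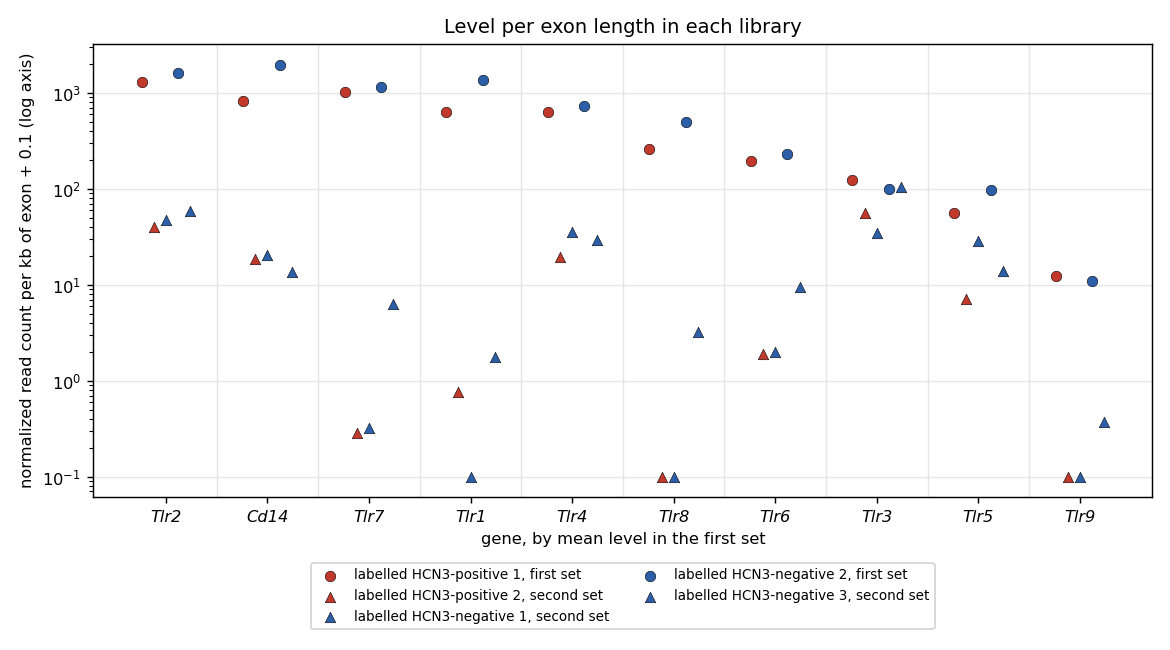
Normalized read count per kb of annotated exon plus 0.1 (log vertical axis) of each gene, ordered by its mean in the first set (horizontal axis). Each point is 1 library, coloured by label and shaped by set. Tlr2, at 1290 and 1605 per kb in the first set, stood near Cd14, and Tlr3 fell least towards the second set.

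Macrophage markers other than Mertk moved with the receptors. All 13 macrophage markers had reads in both libraries of the first set, and 13, 12 and 12 had reads in those of the second. Their summed normalized count was 478851 and 593469 in the first set, against 2275 to 7620 in the second. Mertk, at 4633 and 6418 against 1300, 1764 and 6065, had overlapping sets and made up most of the second-set sum. The receptor of the macrophage growth factor CSF1, Csf1r, was at 92160 and 139878 against 422, 423 and 546. In bulk RNA, more cells of a type and more RNA per cell cannot be told apart. Of 7 dendritic cell markers, 3 rose in the first set in limma: Itgax (1918 and 691 against 8.16, 57.9 and 45.6), Siglech (292 and 453 against 8.16, 1.78 and 11.2) and Cd209a (1116 and 317 against 4.45, 0 and 3.72). Zbtb46 fell, at 310 and 792 against 1372, 1925 and 3425, and their summed levels, 4277 and 2388 against 1518 to 3970, overlapped. Summed B cell markers were 2791 and 3284 against 164 to 1729, and T and NK cell markers 42.3 and 212 against 142 to 1059. Cd3e, Cd3g, Ncr1 and Klrb1c had 0 reads in the first set, and all of these but Cd3g also had 0 in the second-set library labelled HCN3-negative 1. Neutrophil and mast cell markers summed to 49962 and 5619 against 2328 to 4851. Smooth muscle markers were lower in the first set, at 5534 and 3272 against 19699 to 126394, as were stromal ones, at 11292 and 10327 against 93367 to 211149. Endothelial markers stood at 5802 and 6316 against 24059 to 88232, and podocyte markers at 15129 and 9556 against 39501 to 330779. Collecting duct markers (52460 and 16370 against 7351 to 19480), proximal tubule markers (3867 and 27464 against 6491 to 13637), urothelial markers (2033 and 838 against 260 to 7309) and erythroid markers (1184 and 1502 against 901 to 59600) overlapped. Set out by label, this macrophage sum was 478851 and 2275 for HCN3-positive and 2769, 593469 and 7620 for HCN3-negative. The part of these cell types in the receptor levels was not tested.

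Each receptor was also expressed relative to the macrophage markers of its own library. The sum over 12 markers was used, without Mertk, which made up 57.2% to 79.6% of the full sum in the second set and 0.968% and 1.08% in the first, and was left out after its values were seen. This sum was 450-fold higher in the first set. Per 1000 of it, the libraries of the first set were close to each other for Tlr2 (8.20 and 8.24), Tlr4 (7.47 and 6.87), Tlr6 (1.54 and 1.46) and Tlr7 (8.73 and 7.98). In the second set Tlr2 stood at 113 to 143, Tlr4 at 105 to 197, Tlr5 at 34.2 to 136 and Tlr3 at 180 to 348, all above the first set. Tlr7, at 0.761, 0.886 and 16.2, and Tlr8, at 0, 0 and 7.18, lay on both sides of the first set, and Tlr1, at 2.28, 0 and 3.59, lay below its 4.46 and 7.71. With Mertk in the sum, Tlr7 and Tlr8 were higher in the first set without overlap, and Cd14 turned from lower to overlapping. Tlr2, Tlr3, Tlr4, Tlr5 and Tlr6 were lower in the first set without overlap with either sum. By this measure, any gene that rises less than the marker sum tends to come out lower. Tollip, a regulator at like levels in both sets, stood at 8.25 and 9.14 per 1000 of the 12 markers against 3605 to 4135. The lower values are therefore not particular to these receptors.

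**Figure D4:**
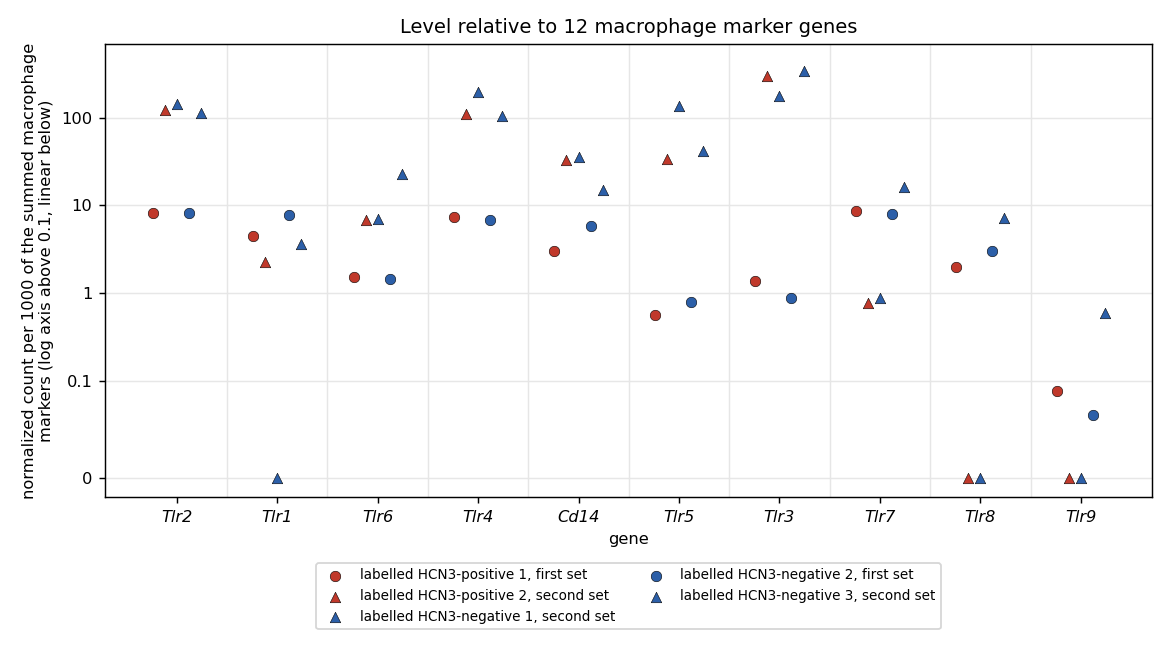
Normalized count per 1000 of the sum of 12 macrophage markers (vertical axis, log above 0.1 and linear below) of each gene (horizontal axis). Each point is 1 library, coloured by label and shaped by set. Tlr2 stood at 8.20 and 8.24 in first-set libraries and at 113 to 143 in second-set ones.

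Promoters were examined because 8 of these genes rose together. RefSeq windows of 300 bases, from 250 before to 50 after the transcript start (GRCm38.p6), were at hand for 7 of the 10 genes. On either strand, the letters GAGGAA, the core of sites for PU.1 and other ETS factors of myeloid cells, occurred in 3 of their 9 windows, those of Tlr8 and Tlr9 and 1 of 2 windows of Tlr1, and 28.3% of all 32851 windows hold them. TGACTCA, an AP-1 site, occurred for Tlr9 alone (5.20% of all windows), and TATAAA for Tlr8 and in 1 of 2 windows of Tlr6 (13.6%). In the Tlr8 window the TATAAA matches of the 2 strands overlap each other. A match is a run of letters and not a shown site. The 3 windows with GAGGAA and that of Tlr3, which holds none of the motifs, are printed from 5′ to 3′ on the gene's strand with matches in capitals: Tlr1 at chr5:64933509-64933808 (minus), Tlr8 at chrX:167264280-167264579 (minus), Tlr9 at chr9:106222348-106222647 (plus) and Tlr3 at chr8:45410331-45410630 (minus).
Tlr1: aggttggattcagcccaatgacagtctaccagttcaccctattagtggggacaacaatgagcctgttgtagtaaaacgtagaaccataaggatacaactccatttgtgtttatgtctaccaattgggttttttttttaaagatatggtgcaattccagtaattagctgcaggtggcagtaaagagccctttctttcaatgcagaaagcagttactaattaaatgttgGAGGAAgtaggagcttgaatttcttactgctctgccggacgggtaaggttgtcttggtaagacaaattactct
Tlr8: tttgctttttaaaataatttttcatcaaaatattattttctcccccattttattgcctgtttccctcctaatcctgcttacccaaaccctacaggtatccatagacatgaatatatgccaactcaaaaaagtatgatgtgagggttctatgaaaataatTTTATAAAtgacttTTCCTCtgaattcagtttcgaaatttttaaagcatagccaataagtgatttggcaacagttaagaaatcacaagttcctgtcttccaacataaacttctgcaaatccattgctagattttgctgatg
Tlr9: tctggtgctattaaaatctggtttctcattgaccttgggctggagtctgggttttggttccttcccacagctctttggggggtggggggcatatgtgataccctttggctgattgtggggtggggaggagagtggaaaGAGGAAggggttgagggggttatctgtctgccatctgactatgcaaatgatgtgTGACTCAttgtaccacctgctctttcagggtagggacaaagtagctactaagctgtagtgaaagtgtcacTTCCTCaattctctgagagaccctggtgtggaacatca
Tlr3: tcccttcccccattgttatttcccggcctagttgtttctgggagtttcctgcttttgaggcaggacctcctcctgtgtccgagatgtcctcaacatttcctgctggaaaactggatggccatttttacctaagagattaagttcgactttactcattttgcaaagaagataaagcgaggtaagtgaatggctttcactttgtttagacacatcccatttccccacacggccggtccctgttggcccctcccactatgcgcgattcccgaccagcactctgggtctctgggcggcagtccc

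The GAGGAA of Tlr1 lies inside the printed window and began 23 bases before the transcript start of that window. The window of the gene's other RefSeq start (chr5:64932650-64932949) held none of the motifs. In Tlr8, GAGGAA was read on the opposite strand, 77 bases before the start. Tlr9 held a copy 112 bases before the start and another, on the opposite strand, 12 bases after it, with TGACTCA 58 bases before. Of the bases of the Tlr8 window, 32.3% are G or C, with 1 CpG, against a median of 52.7% and 7 CpG over all windows. The Tlr3 window has 51.0% and 10 CpG. Tlr2, with 62.0% and 11 CpG, held none of the 3 motifs although the gene rose in the first set.

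Of the remaining 3 Toll-like receptors of the mouse, 1 rose in the first set. Tlr13, which binds bacterial ribosomal RNA, had 6697 and 7426 in the first set and 3.71, 0 and 18.6 in the second, a log2 fold change of 10.61 (SE 1.21, limma adjusted p of 0.00196). Its first-set mean of 1641 per kb of exon was above those of the 10 genes, though its libraries (1556 and 1725) overlapped with those of Tlr2 and Cd14. Tlr11, a receptor of protozoan profilin, had 192 and 81.0 against 23.7, 0 and 0, with a limma adjusted p of 0.0573. Tlr12 had 179 and 494 against 217, 157 and 193, and the sets overlapped.

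Among 64 other genes of the pathway, 0 passed by label. Between the sets, 35 rose and 2 fell in the first set in limma, where 10.6% of all genes tested rose and 9.88% fell, with a median log2 fold change of 1.29 against -0.07 over all genes tested. Without the library labelled HCN3-positive 1 only 13 passed, without HCN3-negative 1 24, and without HCN3-negative 2 21. Of 11 accessory and trafficking genes, 9 rose and 1 fell. Unc93b1, which carries the nucleic acid receptors to endosomes, was at 41141 and 53626 against 926, 1200 and 1557 (log2 fold change 5.29, SE 0.26, limma adjusted p of 0.00018). Ly86, the partner of the Tlr4-like protein Cd180, was at 14701 and 16117 against 33.4, 36.5 and 52.1. Legumain, Lgmn, an endosomal protease that can process these receptors, had a log2 fold change of 4.09, Trim21, a cytosolic antibody receptor, 2.59, the lipid receptor Cd36 3.38 and the chaperone Cnpy3 1.00. The gene that fell was Lbp, the lipopolysaccharide-binding protein, at 696 and 523 against 1301, 1119 and 1419. The chaperone Hsp90b1 did not pass, at 35280 and 38618 against 28438 to 32551.

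Of 6 adaptor genes, 4 rose. Pik3ap1, which links receptors to PI3 kinase, was at 6923 and 9215 against 56.4, 65.9 and 58.6. Myd88, used by all of these receptors but Tlr3, had 7596 and 5357 against 964, 927 and 1056, a log2 fold change of 2.70 (SE 0.23, limma adjusted p of 0.000796). Ticam2, the bridging adaptor of Tlr4, had a log2 fold change of 5.92 and Tirap, which brings MyD88 to the membrane, 1.30. Ticam1, which encodes TRIF, had 0.83 with a limma adjusted p of 0.127, and Sarm1, at 0 and 22.2 against 63.8, 4.45 and 51.2, had overlapping sets.

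Of 15 kinase and ubiquitin ligase genes, 5 rose and 0 fell, with a median log2 fold change of 0.52. The kinases Irak4, Irak2, Ikbke and Ikbkb had log2 fold changes of 1.98, 2.03, 2.89 and 1.19. Tab1 and Ikbkg did not pass, with 0.18 and 0.41. Of 10 NF-kB and IRF genes, 6 rose: Irf5 (5.86), Irf8 (4.37), Irf7 (4.29) and Rel (3.53) by the widest margins, and Rela (0.85) and Nfkb1 (0.97) by less. Irf5, which acts downstream of MyD88, was at 11316 and 9477 against 197, 172 and 166. Relb had 617 and 936 against 402, 457 and 776, with overlapping sets. Among 8 negative regulators 3 rose, namely Irak3 (3.68), the IL-33 receptor gene Il1rl1 (4.31) and the deubiquitinase gene Cyld (1.27). Tnfaip3 had 1.27 with a limma adjusted p of 0.11, and Tollip and Sigirr 0.05 and -0.44.

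**Figure D5:**
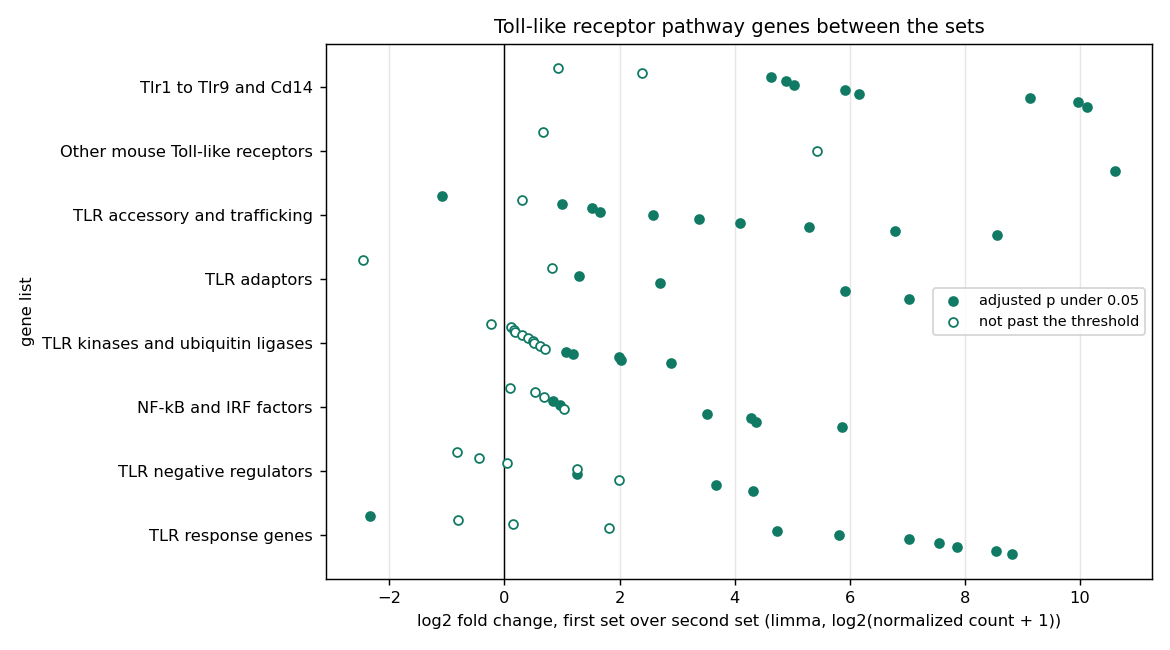
Log2 fold change, first set over second set, on the log2(normalized count + 1) scale (horizontal axis) for each gene of 8 lists (vertical axis). Filled points passed a limma adjusted p of 0.05. In the list of the 10 genes 8 are filled, and in the list of 15 kinases and ligases 5 are.

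Of 11 cytokine, chemokine and other response genes tested, 7 rose and 1 fell in the first set. Il1b was at 1374 and 2870 against 8.16, 6.24 and 16.7, and Tnf at 199 and 332 against 2.97, 0 and 0.93, with log2 fold changes of 7.56 (SE 0.72) and 7.03 (SE 1.02). The limma adjusted p was 0.00114 for Il1b and 0.00464 for Tnf. Il1a had 300.2 and 262, and 1 read in all of the second set. The chemokine gene Ccl3 had 1694 and 6364 against 0.742, 11.6 and 30.7, so its libraries of the first set were themselves far apart. Cd40, a co-stimulatory receptor, fell, at 83.2 and 146 against 338, 687 and 752. Il6 and Ptgs2 did not pass: Il6 had 0 and 31.1 against 2.97, 8.02 and 2.79, and Ptgs2 52.2 and 414 against 236, 303 and 243.

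Genes with the most similar profiles over the 5 libraries were ranked by Euclidean distance between centred log2(normalized count + 1) values, among 12920 genes with a mean of at least 50. Near Tlr2 stood Dhx58 (0.28) and Unc93b1 (0.47), and nearest to Tlr4 were Ptpre (0.40), Pik3cd (0.55) and Tlr2 (0.57). For Cd14 they were Ctsc (0.65), Hpgds (0.72) and Adap2 (0.79). Tlr1 was nearest to Fcgr4 (1.05), Hk3 (1.10) and Clec4n (1.11), and Tlr6 to Fgd3 (0.53), Arhgap15 (0.64) and Pik3cg (0.68). Tlr7 was nearest to Spic (0.48), Ms4a6b (1.04) and Mmp13 (1.06), and Tlr8 to Cd200r1 (1.05), Tlr7 (1.07) and P2ry12 (1.22). The neighbours of Tlr5 were Adam33 (0.52), Irak2 (0.63) and Nfkbiz (0.74), and those of Tlr3 were Rnf31 (0.34), Exoc8 (0.37) and Pnpla2 (0.39). These distances rest on 5 libraries that share their sorting and preparation.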

How the data were processed

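Cells were sorted from pooled E18.5 pelvis-kidney junctions and libraries made with Clontech and Nextera XT kits, per the labels' protocols. Per the submitters' processing notes, which give no order or role, the tools include TopHat2 2.0.11, HTSeq 0.6.1p2 and DESeq 1.18.0, with Trim Galore 0.40 and cutadapt 1.8, and the build is mm10. The gene annotation behind the counts is not known here. The authors deposited a signal per library, which is read counts divided by a size factor, with means, the fold and log2 fold change, and the p-value and adjusted p-value of their comparison, per the file headers.

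Whole reads were recovered with the least nonzero value of a library as the step, for 100% of values (tolerance 0.01). The 3 counter summary rows were left out. They held reads not aligned uniquely (13.5% to 18.7% of reads per library), in no gene (8.58% to 14.0%) or ambiguous (0.792% to 2.32%). Limma 3.58.1 (trend, R 4.3.3) was fitted to log2(normalized count + 1) of the 16579 genes whose mean reached 5 (Benjamini-Hochberg adjusted, threshold 0.05), by label and by the division of the authors' table. The pseudocount shrinks fold changes of low genes, but limma values were not always the smaller ones. Between the sets, limma log2 fold changes of Tlr7 and Tlr8 (9.96 and 9.14) were above those of DESeq2 (8.96 and 8.52). Those of Tlr1 and Tlr9 (10.13 and 5.04) were below (10.34 and 7.04). Alternatives were pseudocounts 0.5 and 5, other filters, TMM scaling, edgeR 4.0.16, DESeq2 1.42.0, libraries left out, a replicate block and, added after seeing the data, the labels within the second set. Limma intervals rest on the spread among libraries. The interval of the Tlr9 read ratio covers counting error only, since PCR copies are not independent molecules.

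Positions and exon lengths come from GENCODE M21 (GRCm38, the build of mm10) and promoters from RefSeq. The genes, lists and tests were chosen with earlier results of these data known. Named besides the 10 genes were up to 4 genes per list by p between the sets and 2 by label, and the 3 nearest profiles of each gene with a mean of at least 50, of which 1 is not reported here. Chosen after their values were seen were Lbp, Hsp90b1, Ticam1, Rela, Nfkb1, Cd40 and Mertk. The dendritic cell markers Itgax, Siglech, Cd209a and Zbtb46 were likewise named for their limma results.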

Additional observations from a re-analysis of the deposited data

How the results depend on the processing

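By label, the count of called genes was 0 under every alternative with limma or edgeR and 10 with DESeq2 (464 genes at an unadjusted p under 0.05). The count among the 10 receptor genes and among the 64 pathway genes was 0 under all of them. DESeq2 gave no adjusted p by label for Tlr1, Tlr7, Tlr8, Cd14 and several pathway genes, among them Unc93b1 and Irf5. Its counts of 0 do not cover these genes. The fit within the second set has 1 library against 2, so its count of 0 says nothing about stability. The direction of single receptor genes by label was not stable. The first set holds a larger share of the libraries labelled HCN3-positive than of those labelled HCN3-negative, and leaving out a library shifts this balance. Without HCN3-positive 1 every receptor gene was lower by label, and without HCN3-positive 2 every one was higher. The cause of the other turns was not tested. The direction turned with edgeR and DESeq2 for Tlr1 (-0.57 and -0.51), Tlr8 (-0.41 and -0.36) and Cd14 (-0.72 and -0.67), and for Tlr8 with a pseudocount of 0.5 (-0.015). Within the second set it turned for Tlr2 (-0.38), Tlr3 (-0.094), Tlr4 (-0.71), Tlr6 (-1.16), Tlr7 (-2.01), Tlr8 (-1.80) and Tlr9 (-0.47). With single libraries left out, the log2 fold change by label ran from -3.26 to 6.09 for Tlr1, -2.02 to 2.97 for Tlr2, -0.34 to 0.81 for Tlr3, -2.21 to 2.80 for Tlr4, -2.25 to 0.72 for Tlr5, -3.04 to 3.53 for Tlr6, -5.14 to 6.08 for Tlr7, -4.80 to 5.07 for Tlr8, -2.08 to 3.36 for Tlr9 and -2.14 to 3.31 for Cd14. With the replicate number as a block, 0 genes passed, and the block turned Tlr2 (-0.28), Tlr4 (-0.52), Tlr6 (-0.15), Tlr7 (-0.15), Tlr8 (-0.47) and Cd14 (-0.71). The library labelled HCN3-negative 3 is alone in its number, so the block repeats the log2 fold changes found without that library. Little is then left to estimate spread, and the count of 0 with the block says nothing about stability. For libraries that share a number, the correlation of their deviations from the label means, across genes, was -0.53 for number 1 and -0.69 for number 2. Deviations of the 2 libraries labelled HCN3-positive mirror each other, and each label holds 1 library of the first set. These correlations therefore follow the division into sets and cannot show whether the numbers pair libraries.

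Between the sets, the count of called genes was 3396, from 2824 with edgeR to 4580 with DESeq2, and from 1241 to 2829 with single libraries left out. Of the 10 receptor genes 7 to 9 passed under the other alternatives and 4 to 8 with single libraries left out. A mean of at least 20 leaves Tlr9 untested. Of the 64 pathway genes 36 to 41 passed under the other alternatives and 13 to 34 with single libraries left out. No receptor gene changed direction between the sets under any alternative run. Where a library is left out and its set keeps 1 library, that library is assumed to vary like the others. Depth limits Tlr9, Tlr8, Tlr7 and Tlr1 in the second set, where 3 reads equal a normalized count of 2.23 to 2.79.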

Other observations

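Within the second set, the library labelled HCN3-negative 3 held the highest level of Tlr1, Tlr2, Tlr3, Tlr6, Tlr7, Tlr8 and Tlr9. Tlr6 was at 35.3 there against 6.68 (labelled HCN3-positive 2) and 7.13 (labelled HCN3-negative 1), and Tlr7 at 25.1 against 0.742 and 0.891. The summed macrophage markers without Mertk were 1555 against 975 and 1005 in the same order, the B cell markers 1729 against 378 and 164, and the T and NK cell markers 1059 against 594 and 142. That library also stood apart in podocyte markers (330779 against 39501 and 51657), erythroid markers (59600 against 3613 and 901) and endothelial markers (88232 against 24059 and 40582). These genes were picked after their values were seen, and the part of these cell types was not tested.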
